A study of Homo sapiens with 24 samples.

Results

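The genes described here are 10 members of the bone morphogenetic protein (BMP) branch of SMAD signalling: the inhibitor-of-DNA-binding genes ID1, ID2, ID3 and ID4, the receptor-regulated SMAD genes SMAD1, SMAD5 and SMAD9, the inhibitory SMAD genes SMAD6 and SMAD7, and BAMBI. They are 10 of the 58138 gene names in the count tables. The set was chosen by pathway and by measured values: ID1 CPM was higher in the RPRD1B_FL cell line, and SMAD5 CPM was lower in cells given RPRD1A siRNA. Contrasts of these kinds are therefore described without a test.

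BMP ligands bind pairs of receptor kinases at the cell surface, and the active receptor phosphorylates SMAD1, SMAD5 or SMAD9, which join SMAD4 and enter the nucleus. The ID genes are classic direct targets of this complex, and their proteins hold E proteins away from DNA and so keep progenitor cells from differentiating. SMAD6, SMAD7 and BAMBI are induced by the same signal and damp it, SMAD6 and SMAD7 at the receptor and BAMBI as a receptor-like protein without a kinase. The silenced genes RPRD1A, RPRD1B and RPRD2 encode proteins that bind the carboxy-terminal tail of RNA polymerase II.

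The series asked how RPRD proteins affect the amount of RNA that accumulates. All samples come from human embryonic kidney cultures, in 12 groups of 2 samples. In HEK293T cells, 8 groups received siRNA for 48 h. They are a control, groups with 1 target (RPRD1B_KD, RPRD2_KD and RPRD1A_KD), groups with a pair of names (RPRD1B_RPRD2_KD, RPRD1A_RPRD2_KD, and RPRD1A_RPRD1A_KD, which names RPRD1A in both positions), and RPRD1A_RPRD1B_RPRD2_KD with all 3 targets. In Flp-In T-REx 293 cells, a relative of HEK293T built to carry a gene that tetracycline can switch on, the 4 groups were FLP, its tetracycline-treated counterpart FLP_TET, RPRD1B_FL, and its treated counterpart RPRD1B_FL_TET, treatment lasting 48 h. The labels explain neither FL nor whether RPRD1B_FL is 1 clone, so the inserted gene and any other difference between these lines cannot be told apart. They also do not say whether the samples of a group were separate cultures, so every p-value measures only the spread between these samples. In bulk RNA of this kind, fewer cells of a type and less RNA per cell cannot be told apart.

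Libraries read the 3′ ends of polyadenylated RNA, and levels are CPM, counts scaled to a common library size, after TMM scaling of library sizes. A transcript gives reads from its end only, so CPM are comparable between genes without division by length. Counts in genes ranged from 1817246 to 3531106 per library, and 3 counts, the floor used here, correspond to 0.872 to 1.61 CPM. RPRD1A was 155 ± 10 CPM (SD, n = 2) in control cells and 19.1 to 25.6 CPM on average in the 4 groups labelled with its siRNA, but also 75.5 to 92.1 CPM in the groups with only other RPRD siRNAs. RPRD1B averaged 27.2 CPM in control cells, 7.52 to 10.3 CPM in the groups labelled with its siRNA and 10.8 CPM in the group labelled RPRD1A_RPRD1A_KD. RPRD2 averaged 96.3 CPM in control cells and 31.8 to 59.7 CPM in the groups labelled with its siRNA. In the Flp-In cells RPRD1B averaged 35.9 CPM in FLP, 45.1 in RPRD1B_FL, 30.5 in FLP_TET and 78.3 in RPRD1B_FL_TET. RPRD1A averaged 56.8, 46.6, 55.8 and 26.3 CPM in the same order, so it was also low in RPRD1B_FL_TET, without siRNA. All 9 marker genes listed for 293 lines were detected in both lines, and the 3 hepatocyte and 3 endothelial markers had medians of 0 CPM. Across genes, the deviation of a library from its line's mean followed transcript GC content to different degrees, with Spearman correlations of -0.55 to 0.60 in Flp-In libraries and -0.24 to 0.11 in HEK293T libraries, except 0.45 in the second RPRD1A_RPRD2_KD library, which stands apart.

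Over the 16 HEK293T samples the members with the highest medians were ID3 (100 CPM), ID2 (96.1 CPM) and SMAD5 (84.8 CPM). In the Flp-In cells the order depended on the line: SMAD5 averaged 110 CPM, ID4 66.8 CPM and ID3 62.4 CPM in FLP, against 186 CPM of ID3 and 102 CPM of SMAD5 in RPRD1B_FL. SMAD7 had the lowest median of the 10 in both lines. ID2 was the 1 member whose lines did not overlap, at 74.7 to 128 CPM in HEK293T and 31.1 to 64.4 CPM in Flp-In samples. How many of all genes separate the lines in this way was not counted, so nothing particular to ID2 is read from it. Cell line, transfection and experiment differ together here, so no test was made across lines. SMAD5 gave a median of 83.1% of the summed SMAD1, SMAD5 and SMAD9 CPM in HEK293T and 78.6% in Flp-In cells. SMAD6, not SMAD7, supplied most inhibitory SMAD reads, with a median of 91.5% of their sum in HEK293T and 81.6% in Flp-In cells. SMAD7 had 1 to 11 counts in HEK293T libraries and 7 to 18 in Flp-In libraries, so it did not pass the filter on low counts in HEK293T, where 9 of the 10 members were fitted, against 10 of 10 in Flp-In cells.

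**Figure D1:**
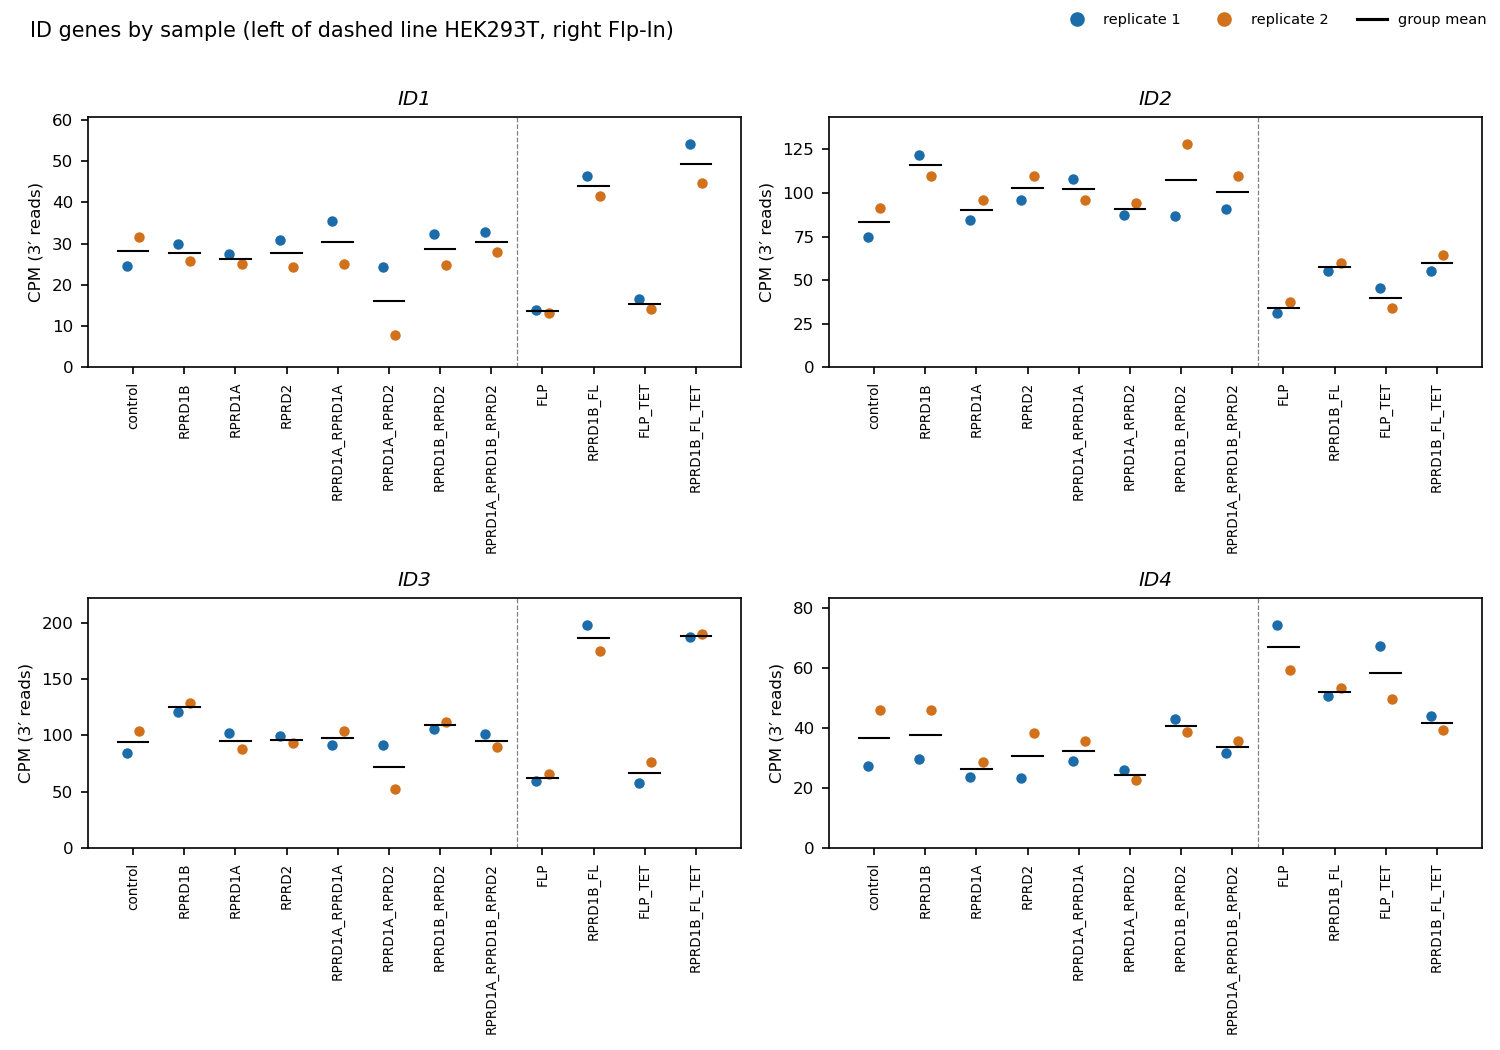
CPM of ID1, ID2, ID3 and ID4 in each sample (points, coloured by replicate number) with group means (lines), for 8 HEK293T groups (named without "_KD", control at the left) and 4 Flp-In groups. ID1 and ID3 sit at 13.1 to 16.5 and 57.6 to 76 CPM in the FLP and FLP_TET samples and at 41.6 to 54.1 and 175 to 198 CPM in the RPRD1B_FL and RPRD1B_FL_TET samples.

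The widest differences among the members lay between the Flp-In lines, and they concerned the ID genes unequally: ID1 and ID3 were about 3 times higher in RPRD1B_FL than in FLP, ID2 was modestly higher, and ID4 was lower. ID1 lies at chr20:31605283-31606515 on the plus strand and ID3 at chr1:23557918-23559794 on the minus strand (GRCh38, GENCODE release 29). The 250 bases that end 1 base before each RefSeq transcript start (GRCh38.p14) are shown because ID3 is the gene whose group means were most like those of ID1. The windows are chr20:31605039-31605288 for ID1 and chr1:23559502-23559751 for ID3, written 5′ to 3′ on the gene's strand. Capitals mark matches on either strand to TATAAA, the letters of a TATA box, to CCAAT, those of a CCAAT box, and to GTCTG, those of a SMAD-binding element.
ID1: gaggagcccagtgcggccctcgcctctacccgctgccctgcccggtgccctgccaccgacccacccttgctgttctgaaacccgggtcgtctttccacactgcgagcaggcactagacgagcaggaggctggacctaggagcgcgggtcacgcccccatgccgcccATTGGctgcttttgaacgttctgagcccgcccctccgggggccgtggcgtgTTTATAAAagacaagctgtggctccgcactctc
ID3: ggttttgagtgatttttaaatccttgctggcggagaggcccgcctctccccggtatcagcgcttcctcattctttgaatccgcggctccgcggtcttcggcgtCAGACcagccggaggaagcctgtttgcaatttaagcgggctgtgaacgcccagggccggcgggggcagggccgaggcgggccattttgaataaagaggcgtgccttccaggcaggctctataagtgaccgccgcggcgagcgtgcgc
In the ID1 window TATAAA matches on opposite strands overlap at 33 and 31 bases before the start, and CCAAT matches once at 84 bases. The ID3 window holds 1 match, to GTCTG, at 147 bases. Neither window holds GGCGCC, a GC-rich motif known from BMP-responsive elements, which is found in 3 places in the BAMBI window and in none of the other 9 members' windows. Of 35116 promoter windows of this length, 16.4% hold GGCGCC, 38% GTCTG, 10.7% TATAAA and 32% CCAAT. These matches are descriptions of the letters and not evidence of binding. The windows hold only the 250 bases before the start, so an element farther away would not be seen in them.

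ID1, the most studied BMP target of the family, measured 14 and 13.1 CPM in the FLP samples and 46.3 and 41.6 CPM in the RPRD1B_FL samples. With tetracycline it measured 16.5 and 14.2 CPM in FLP_TET and 54.1 and 44.7 CPM in RPRD1B_FL_TET. Every RPRD1B_FL and RPRD1B_FL_TET sample lay above every FLP and FLP_TET sample, and the log2 fold change was 1.71 (SE 0.22) without and 1.66 (SE 0.22) with tetracycline.

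ID3 showed the same arrangement at a higher level, at 59.5 and 65.4 CPM in FLP against 198 and 175 CPM in RPRD1B_FL. The tetracycline samples gave 57.6 and 76 CPM in FLP_TET against 187 and 190 CPM in RPRD1B_FL_TET. The lines did not overlap, with log2 fold changes of 1.58 (SE 0.17) and 1.47 (SE 0.17).

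ID2 was 31.1 and 37.5 CPM in FLP, 55.1 and 60 CPM in RPRD1B_FL, 45.6 and 34.2 CPM in FLP_TET, and 55.3 and 64.4 CPM in RPRD1B_FL_TET. Its lines also did not overlap, but the step was smaller, at 0.75 (SE 0.20) and 0.55 (SE 0.20) on the log2 scale. ID4, the member most tied to neural and mammary progenitors, went the other way, from 74.2 and 59.3 CPM in FLP to 50.7 and 53.1 CPM in RPRD1B_FL. With tetracycline ID4 was 67.1 and 49.7 CPM in FLP_TET and 43.8 and 39.3 CPM in RPRD1B_FL_TET, so the lines separated within each tetracycline state but overlapped over both. The summed CPM of the 4 ID genes was 177 ± 2.6 (SD, n = 2) in FLP and 340 ± 14 in RPRD1B_FL, and 180 ± 9 in FLP_TET and 339 ± 1.4 in RPRD1B_FL_TET.

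Among the genes that damp the signal, SMAD6 was 14 and 12.8 CPM in FLP and 27 and 27.9 CPM in RPRD1B_FL. With tetracycline it was 14.1 and 18.1 CPM in FLP_TET and 24.8 and 23.7 CPM in RPRD1B_FL_TET. The SMAD6 samples of the lines did not overlap, with log2 fold changes of 1.04 (SE 0.24) and 0.57 (SE 0.24). SMAD7 was 5.68 and 2.61 CPM in FLP, 5.83 and 4.58 in RPRD1B_FL, 2.14 and 4.28 in FLP_TET, and 6.86 and 5.81 in RPRD1B_FL_TET. Those samples overlapped without tetracycline and not with it, from 7 to 18 counts each. BAMBI ranged from 12.8 to 17.5 CPM over the FLP and FLP_TET samples and from 14.6 to 22.5 CPM over the RPRD1B_FL and RPRD1B_FL_TET samples, with a log2 fold change over both states of 0.28 (SE 0.18).

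The SMADs that carry the signal differed little between these lines. SMAD5 was 108 and 111 CPM in FLP, 91.9 and 111 in RPRD1B_FL, 103 and 87.6 in FLP_TET, and 88.8 and 104 in RPRD1B_FL_TET, with fully mixed samples. Over both tetracycline states its log2 fold change was -0.05 (SE 0.12), that of SMAD1 0.39 (SE 0.22) and that of SMAD9 0.25 (SE 0.19).

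A gene is called below when its Benjamini-Hochberg adjusted p over all genes fitted is under 0.05 in edgeR's quasi-likelihood test. Without tetracycline 3 of the 10 members (ID1, ID3 and SMAD6) passed this rule between the lines, all higher in RPRD1B_FL, beside 1.18% of 11948 genes in either direction and 0.226% higher. With tetracycline 2 of 10 (ID1 and ID3) did, beside 1.11% in either direction and 0.226% higher. Over both states 4 of 10 (ID1, ID2, ID3 and SMAD6) did, beside 4.08% in either direction and 1.41% higher. The median log2 fold change over both states was 0.52 for the 10 members and 0.004 for all genes. As ID1 was chosen for this contrast, these counts are given as a description only. How many of all genes separate the Flp-In lines without overlap was not counted, so nothing particular to single genes is read from such separations.

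Values with 1 library left out describe the same chosen contrasts and are no test. ID1 then stayed at log2 fold changes of 1.64 to 1.78 without and 1.53 to 1.78 with tetracycline. ID3 stayed at 1.5 to 1.67 and 1.28 to 1.69. SMAD6 without tetracycline stayed at 0.97 to 1.11. It fell short of the call rule without any 1 of the FLP, RPRD1B_FL and FLP_TET libraries. Over both states SMAD6 fell short of that rule without the first FLP_TET library and ID2 without the second. Transcript GC content is 58.1% for ID1, 56.6% for ID3 and 60.7% for SMAD6, against a median of 49.5% over the genes fitted, and GC trends ran from -0.55 to -0.36 in FLP and from -0.49 to 0.18 in RPRD1B_FL libraries. With a GC correction the values without tetracycline were 1.57 for ID1, 1.46 for ID3 and 0.90 for SMAD6; ID2 (0.75) then also passed the rule there, and ID4 (-0.41) over both states. The first RPRD1B_FL library (GC trend 0.18) had 46.3 CPM of ID1 and 198 CPM of ID3. The second (GC trend -0.49) had 41.6 and 175 CPM. Each is 1 library, and the part of GC content in the line difference was not tested.

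**Figure D2:**
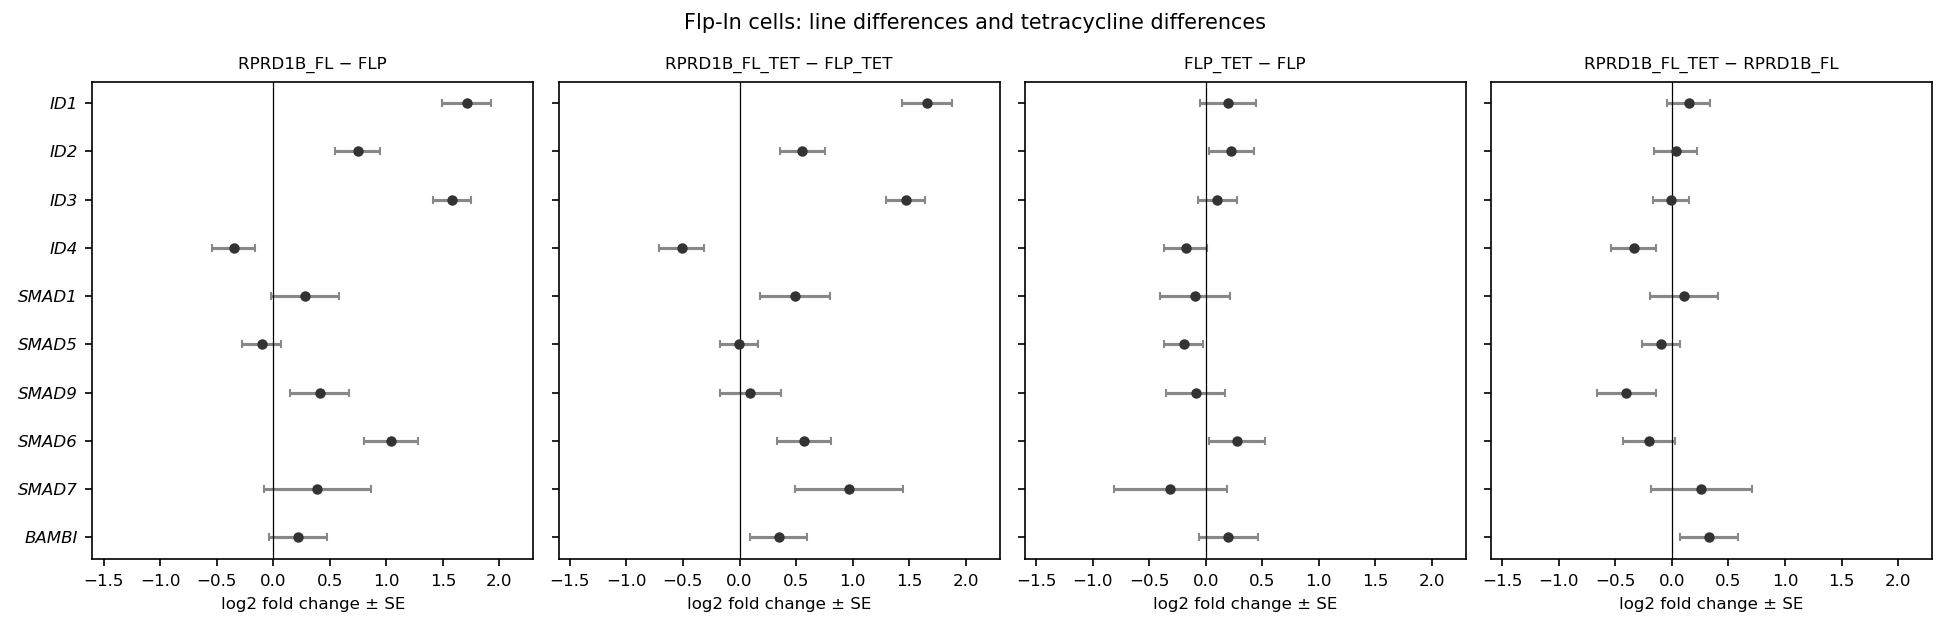
Log2 fold changes (points) with their SE (bars) of the 10 members between the Flp-In lines, without and with tetracycline (left panels), and between tetracycline and no tetracycline within FLP and within RPRD1B_FL (right panels). ID1 and ID3 lie between 1.47 and 1.71 in both line panels and between -0.01 and 0.20 in both tetracycline panels.

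A list of 77 other BMP pathway genes was examined in the same fits, of which 76 are named in the tables and 53 passed the filter in Flp-In cells. In each line contrast 1 of these 53 was higher and 1 lower by the call rule. Of all genes, 1.18% passed that rule without tetracycline, 1.11% with it and 4.08% over both states, in either direction. Over both states the share of the list was no larger than that of all genes. The higher gene was BMP2, a ligand of the pathway: FLP libraries held 0 and 3 counts, FLP_TET libraries 0 and 1, RPRD1B_FL libraries 25 and 14, and RPRD1B_FL_TET libraries 24 and 17. All RPRD1B_FL and RPRD1B_FL_TET libraries exceeded all FLP and FLP_TET libraries. BMP2 passed the filter on low counts only through the RPRD1B_FL and RPRD1B_FL_TET libraries, so it was fitted because it was high there. Its call and its separation of the lines are therefore descriptions and no test. From summed counts BMP2 was 14.7 times higher without tetracycline (exact 95% interval 4.69 to 74.6, counting error only) and 53.2 times higher with it (9.02 to 2150), so the size is poorly bounded from above. BMP2 had 0 to 17 counts in the HEK293T libraries. The call was lost without the first FLP, the first RPRD1B_FL or the first FLP_TET library in the contrast each belongs to, and was kept over both states whichever library was left out.

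The lower gene was USP9X, a deubiquitinase that restores SMAD4. It was 202 and 162 CPM in FLP and 91.9 and 98.5 CPM in RPRD1B_FL, and 132 and 136 CPM in FLP_TET and 81.2 and 89.4 CPM in RPRD1B_FL_TET, without overlap. The log2 fold change of USP9X was -0.92 (SE 0.16) without and -0.68 (SE 0.17) with tetracycline. The tetracycline call was lost without any 1 of 4 libraries (the first of RPRD1B_FL, either FLP_TET, the first RPRD1B_FL_TET) and the other without the first FLP or the first RPRD1B_FL library.

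The rest of the pathway list moved less. Among genes averaging 10 CPM or more in at least 1 line, the lowest of the rest over both states was ACVRL1, a BMP receptor kinase, at -0.71 (SE 0.25), and the highest were MSX2, a homeobox target of BMP signals, at 0.33 (SE 0.14) and SKI, a SMAD corepressor, at 0.33 (SE 0.12). None of these passed the call rule, but ACVRL1 did with a GC correction (-0.78) or without the first RPRD1B_FL_TET library (-1.03), and SKI without the second (0.42). The median of the 53 genes was -0.06. Members of the list with a median of 10 CPM or more in Flp-In cells included the ligands BMP6, BMP7 and GDF11, the receptors BMPR2 and ACVR2B, and all 3 E proteins, TCF3, TCF4 and TCF12, the binding partners of the ID proteins. TCF3, TCF4 and TCF12 were not called in any line contrast.

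**Figure D3:**
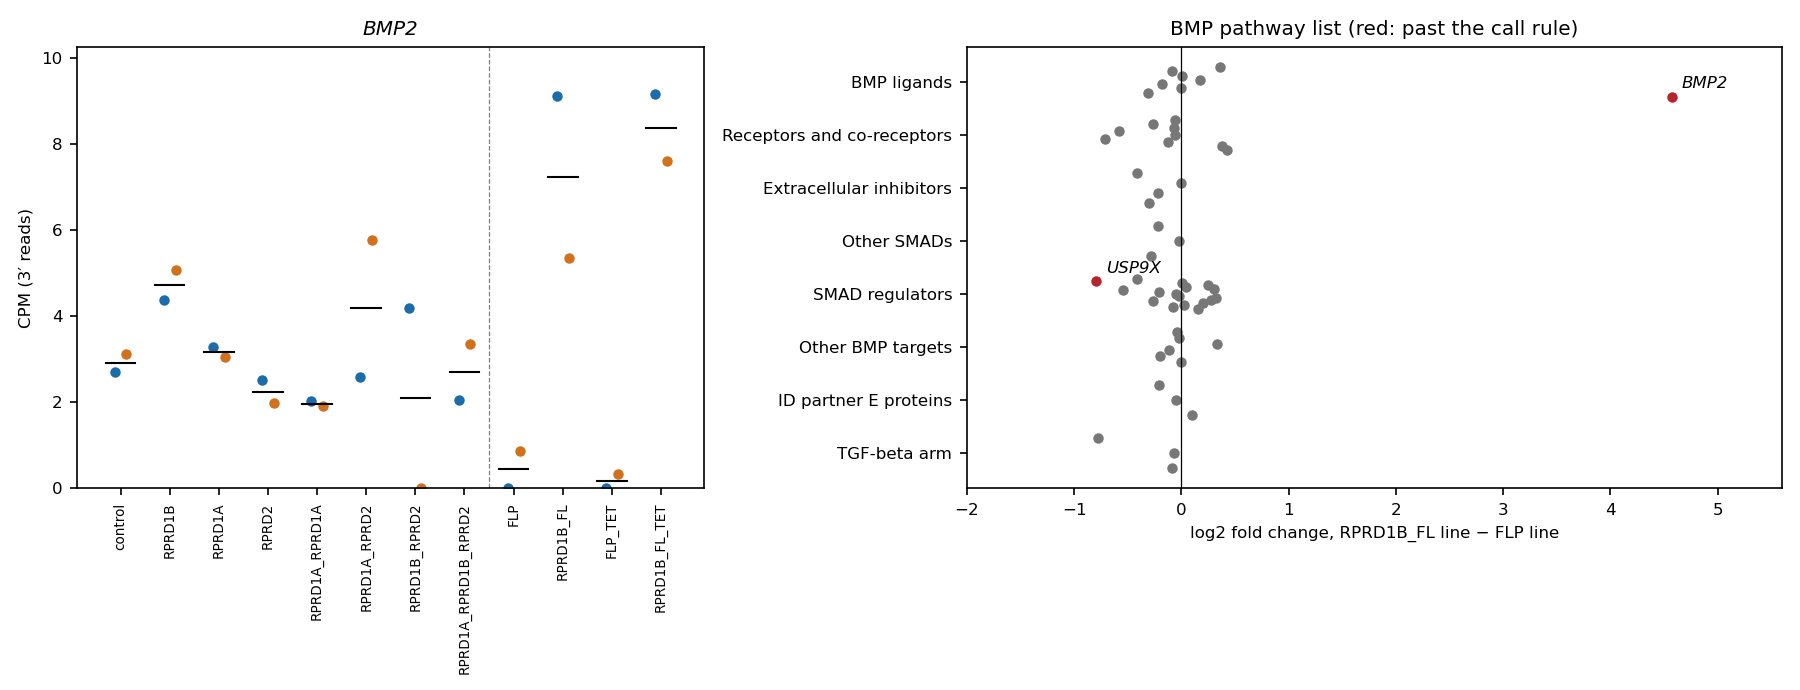
Left, CPM of BMP2 in each sample (points) with group means (lines), blue for replicate 1 and orange for replicate 2. Right, fitted log2 fold changes between the RPRD1B_FL and FLP lines over both tetracycline states for the 53 fitted pathway genes by class, with BMP2 (higher) and USP9X (lower) the genes past the call rule; the fitted value of BMP2 rests on 0 to 3 counts per FLP and FLP_TET library.

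Tetracycline itself was tested in each line, over both lines, and as the difference of its effect between lines. The choice of members did not use the effect of tetracycline. That last difference, the interaction, is also the difference between the line contrasts with and without tetracycline. The choice used those for ID1, so for ID1 the interaction is described only. No member was called in any of these tests: 0 of 10 in FLP beside 1.02% of genes, 0 of 10 in RPRD1B_FL beside 0%, 0 of 10 over both lines beside 2.98%, and 0 of 10 for the interaction beside 0%. None had an unadjusted p under 0.05 in edgeR, where 22.7%, 6.13%, 23.9% and 3.99% of all genes did in these 4 tests, and DESeq2 called none of the members to which it gave an adjusted p. ID1 averaged 28.8 CPM without and 32.4 CPM with tetracycline over both lines, a log2 fold change of 0.17 (95% interval -0.14 to 0.48, adjusted p = 0.53). For ID3 the value was 0.05 (interval -0.19 to 0.28, adjusted p = 0.84), and for SMAD6 0.04 (interval -0.29 to 0.37, adjusted p = 0.92). With a GC correction these moved to 0.002 for ID1, -0.10 for ID3 and -0.17 for SMAD6. ID4 had the smallest p, at -0.26 (interval -0.53 to 0.01, adjusted p = 0.26), with means of 59.3 CPM without and 50 CPM with tetracycline.

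The line differences of ID1 and ID3 had like values in both tetracycline states, within wide intervals. The interaction was -0.05 for ID1 (interval -0.66 to 0.57, described only). For ID3 it was -0.11 (interval -0.58 to 0.35, adjusted p = 0.99). The widest interaction among the members past the call rule between lines was that of SMAD6, -0.48 (interval -1.14 to 0.19, adjusted p = 0.99). RPRD1B itself averaged 78.3 CPM with and 45.1 CPM without tetracycline in RPRD1B_FL, against 30.5 and 35.9 CPM in FLP. No pathway gene was called for tetracycline in any of these 4 tests, where DESeq2 called none either. At an unadjusted p under 0.05, 7 of the 53 passed over both lines, a smaller share than the 23.9% of all genes. The outer values among genes averaging 10 CPM or more included RGMA, a BMP co-receptor, at 0.53 (SE 0.16, adjusted p = 0.06), SKIL, a SMAD corepressor, at -0.47 (SE 0.19, adjusted p = 0.15) and USP15, a deubiquitinase of SMADs, at -0.48 (SE 0.21, adjusted p = 0.17). The count of called pathway genes was 7 when the second RPRD1B_FL_TET library was left out, when 2408 of all genes were called, and the E protein gene TCF3 was called at -0.38 with a GC correction.

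In HEK293T cells the member that differed most clearly with siRNA was SMAD5, the main receptor-regulated SMAD of these cells by read number, at chr5:136132845-136188747 on the plus strand. It measured 94.6 and 108 CPM in control cells, 54.1 and 68.6 CPM in RPRD1A_KD, and 61.5 and 80.8 CPM in RPRD1A_RPRD1A_KD. In RPRD1A_RPRD2_KD it measured 52.4 and 53.9 CPM, and in RPRD1A_RPRD1B_RPRD2_KD 81.4 and 78.9 CPM. The groups without RPRD1A siRNA stayed near the control, with 99.7 and 100 CPM in RPRD1B_KD, 91 and 88.2 CPM in RPRD2_KD, and 88.1 and 102 CPM in RPRD1B_RPRD2_KD. All 8 samples given RPRD1A siRNA therefore lay below all 8 samples without it, the nearest pair being 81.4 and 88.1 CPM. The choice of SMAD5 used these values, and how many of all genes separate in this way was not counted.

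Against control cells the SMAD5 log2 fold change was -0.74 (SE 0.18) in RPRD1A_KD, -0.52 (SE 0.18) in RPRD1A_RPRD1A_KD, -0.96 (SE 0.18) in RPRD1A_RPRD2_KD and -0.35 (SE 0.18) in RPRD1A_RPRD1B_RPRD2_KD. These comparisons share the control samples. Over the 4 groups with and the 4 without RPRD1A siRNA, SMAD5 averaged 66.4 and 96.5 CPM, a log2 fold change of -0.56 (SE 0.088), with -0.60 among the first and -0.51 among the second replicates on the log2(CPM + 1) scale. The HEK293T replicate numbers separate the libraries by reads outside genes, 34.3% to 36.7% in the first and 27.4% to 29.8% in the second. No term for replicate number was in the main fits. SMAD5 was the 1 of 9 fitted members past the call rule in that pooled contrast, beside 0.0676% of 11834 genes in either direction and 0.0507% lower; the rule used this contrast. With all libraries and the filter, no member passed it in the RPRD1A_KD and RPRD1A_RPRD2_KD contrasts (beside 0.00845% of genes each) or in the RPRD1A_RPRD1A_KD and RPRD1A_RPRD1B_RPRD2_KD contrasts (beside 0.0169% each), and without the filter on low counts SMAD5 passed it in RPRD1A_RPRD2_KD (-0.94). The pooled fold change stayed between -0.61 and -0.52 when any 1 library was left out, but the call was kept in 5 of 16 such fits: those without the first control library, the second RPRD1A_KD or RPRD1A_RPRD1A_KD library, or either RPRD1A_RPRD2_KD library. SMAD5 transcripts have 43.8% GC, and with a GC correction the pooled value was -0.55. The antisense gene SMAD5-AS1 had 0 to 3 counts per library.

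**Figure D4:**
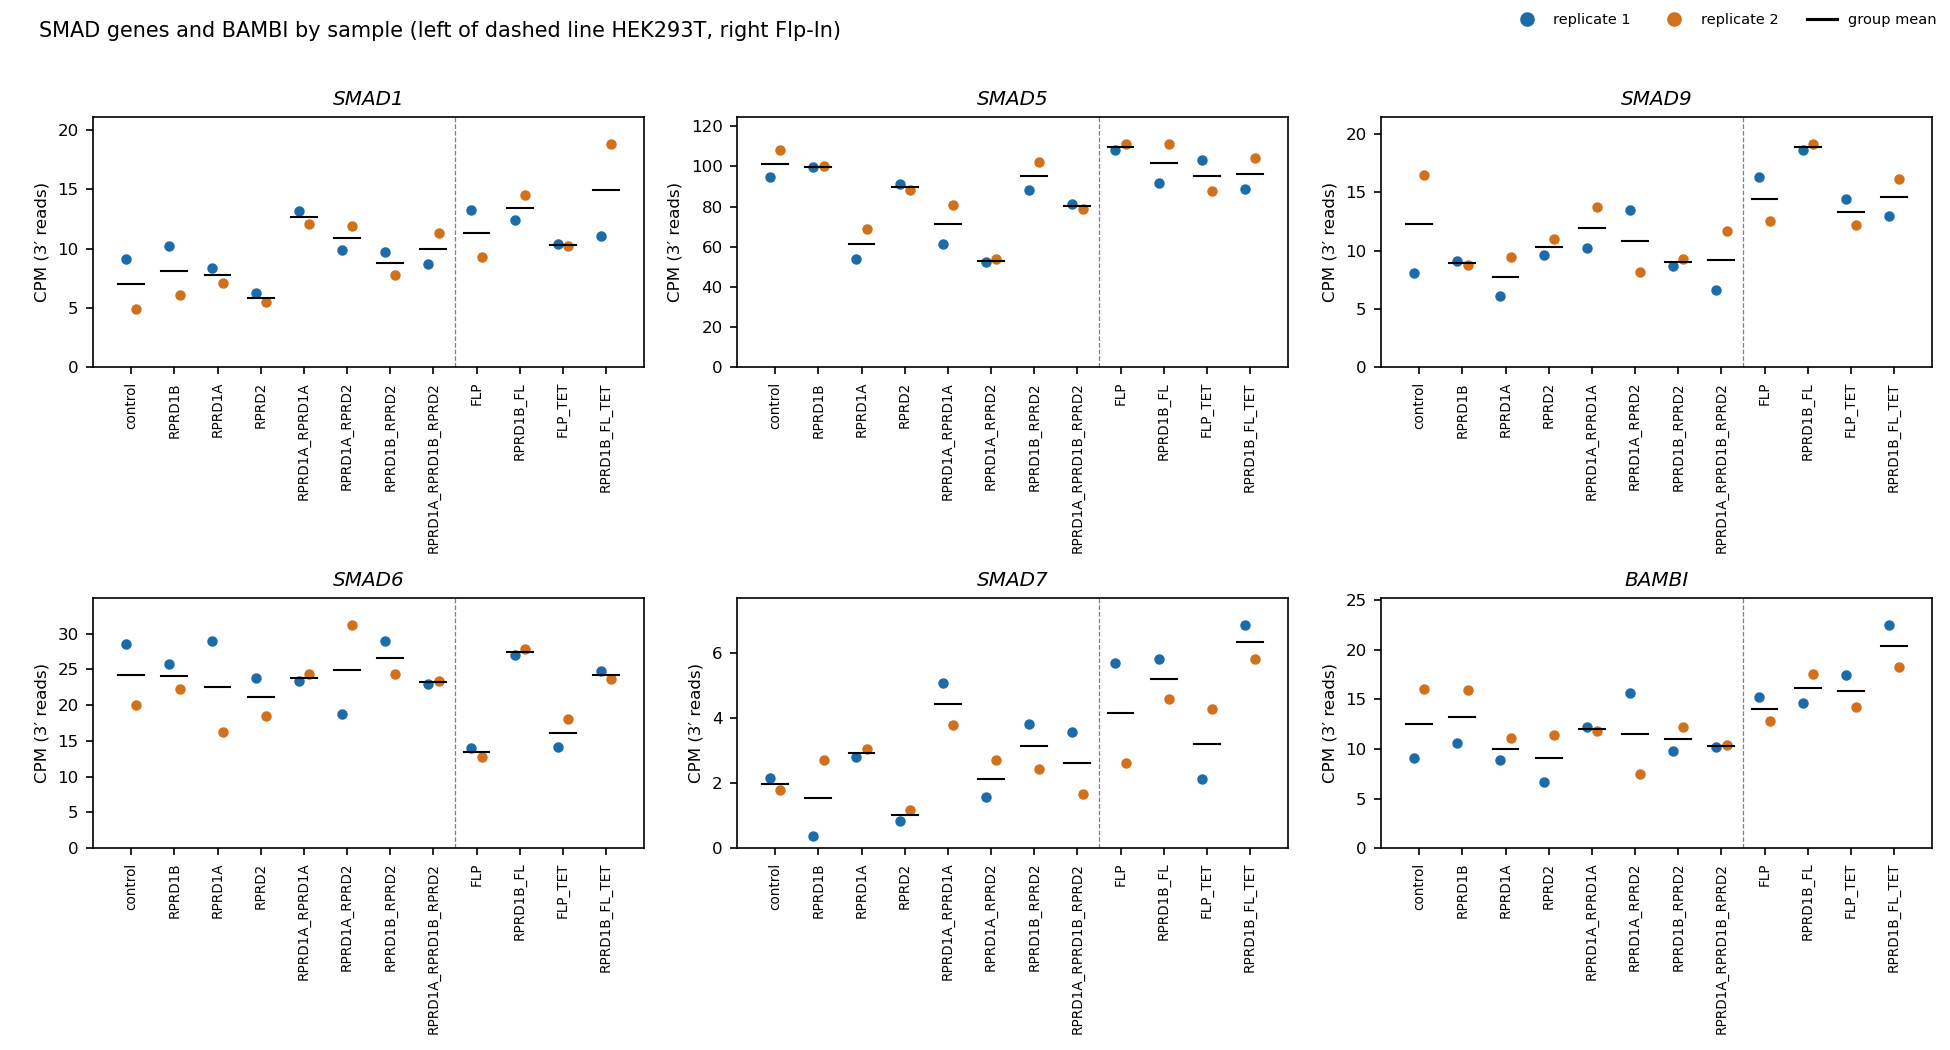
CPM of SMAD1, SMAD5, SMAD9, SMAD6, SMAD7 and BAMBI in each sample (points, coloured by replicate number) with group means (lines), for the 8 HEK293T groups (siRNA target names) and the 4 Flp-In groups. For SMAD5 the 8 samples given RPRD1A siRNA sit at 52.4 to 81.4 CPM and the other HEK293T samples at 88.1 to 108 CPM.

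The related SMADs did not share this pattern. SMAD1 averaged 10.3 CPM with and 7.45 CPM without RPRD1A siRNA, a pooled log2 fold change of 0.46 (SE 0.18) in the opposite direction, and its samples overlapped (7.09 to 13.2 against 4.89 to 10.2 CPM). SMAD9 averaged 9.91 and 10.1 CPM, with a pooled log2 fold change of -0.04 (SE 0.20). The summed CPM of SMAD1, SMAD5 and SMAD9 was 120 ± 12 (SD, n = 2) in control cells, 76.9 ± 12 in RPRD1A_KD, 95.7 ± 15 in RPRD1A_RPRD1A_KD, 74.8 ± 1.3 in RPRD1A_RPRD2_KD and 99.3 ± 3.6 in RPRD1A_RPRD1B_RPRD2_KD.

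No ID gene passed the call rule for pooled RPRD1A siRNA. ID4 and ID3 had pooled log2 fold changes of -0.34 (SE 0.14) and -0.25 (SE 0.11), with overlapping samples. ID1 and ID2 had values of -0.20 (SE 0.18) and -0.09 (SE 0.097), SMAD6 -0.03 (SE 0.15) and BAMBI -0.07 (SE 0.20). The lowest ID1 and ID3 values of the HEK293T cells, 7.79 and 52.5 CPM, were both in the second RPRD1A_RPRD2_KD library, whose partner had 24.4 and 91.2 CPM. In the other 14 HEK293T libraries ID1 lay between 24.4 and 35.6 CPM and ID3 between 84.4 and 129 CPM. ID1 in RPRD1A_RPRD2_KD was -0.92 (SE 0.38) against control with both libraries and -0.20 without the second, and without it the pooled values were -0.03 for ID1 and -0.15 for ID3. That library's GC trend of 0.45 means that GC-rich transcripts tended to be higher in it. ID1 and ID3 transcripts, at 58.1% and 56.6% GC against a median of 49.5%, were lower in it. The part of GC content in these values was not tested.

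The contrasts for RPRD1B and RPRD2 siRNA are not those that chose the members and were tested, except for SMAD5, whose pooled values include groups given RPRD1A siRNA and are described only. RPRD1B siRNA was examined as the mean of 3 matched differences (RPRD1B_KD against control, RPRD1B_RPRD2_KD against RPRD2_KD, and RPRD1A_RPRD1B_RPRD2_KD against RPRD1A_RPRD2_KD). None of the 9 fitted members was called, beside 0.0254% of genes, and DESeq2 called none. The log2 fold change was positive for 8 of the 9, SMAD5 included, beside 6153 of 11834 genes, with a median of 0.22 against 0.009 for all genes. The 9 values come from the same libraries, so their signs are not separate observations. All 4 ID genes were positive: ID3 at 0.33 (interval 0.08 to 0.58, adjusted p = 0.70), ID1 at 0.34 (interval -0.07 to 0.74, adjusted p = 0.81), ID4 at 0.30 (interval -0.02 to 0.62, adjusted p = 0.79) and ID2 at 0.22 (interval 0.00 to 0.44, adjusted p = 0.78). Of these ID3 had an unadjusted p under 0.05, where 6.42% of all genes did.

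The 3 matched differences were unequal. For ID3 they were 0.39, 0.17 and 0.43 in the order given, for ID2 0.46, 0.05 and 0.16, and for ID4 0.01, 0.40 and 0.50. For ID1 they were -0.05, 0.06 and 1.00, so its pooled value came from RPRD1A_RPRD1B_RPRD2_KD against RPRD1A_RPRD2_KD. SMAD5 (pooled 0.22) had the same shape, at -0.04, 0.08 and 0.61, and the last of these compares groups whose low SMAD5 helped to choose the members. The library that stands apart is on the RPRD1A_RPRD2_KD side. Without it the pooled ID1 was 0.10 and ID3 0.19, and without its partner, which leaves it to represent its group, ID1 was 0.67 and ID3 0.49 and both were called. In RPRD1B_KD alone, which does not use that library for its difference, ID3 was 121 and 129 CPM against 84.4 and 104 CPM in control cells, without overlap, at 0.39 (interval -0.04 to 0.82, adjusted p = 1). ID2 was 122 and 110 CPM against 74.7 and 91.7 CPM, also without overlap, at 0.46 (interval 0.08 to 0.84, adjusted p = 1). How many of all genes separate these groups in this way was not counted, so nothing is read from the lack of overlap. No member was called in RPRD1B_KD, RPRD2_KD or RPRD1B_RPRD2_KD against control, beside 0.00845%, 0.00845% and 0.0169% of genes. At an unadjusted p under 0.05 there were 1 (ID2), 0 and 0 members, beside 3.46%, 3.84% and 2.51% of genes, and DESeq2 called none.

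RPRD2 siRNA, compared as the 4 groups with it against the 4 without, gave member log2 fold changes between -0.21 (BAMBI, interval -0.60 to 0.17) and 0.04 (ID2, interval -0.15 to 0.23). None of the 9 was called or had an unadjusted p under 0.05 in edgeR, beside 0.0169% of genes called and 3.35% under that unadjusted p, and DESeq2 called none. For SMAD5 the value was -0.08 (interval -0.25 to 0.09).

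**Figure D5:**
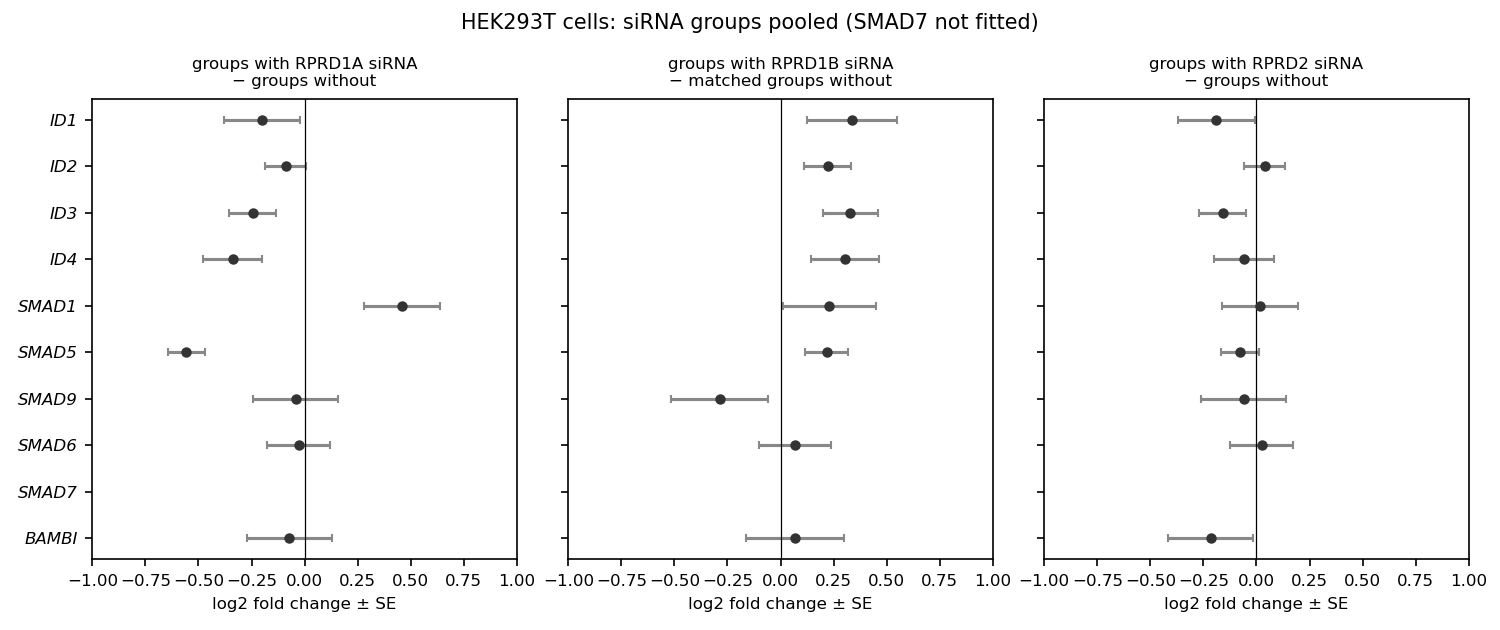
Pooled log2 fold changes (points) with their SE (bars) of the members in HEK293T cells for RPRD1A, RPRD1B and RPRD2 siRNA; SMAD7 was not fitted. SMAD5 lies at -0.56 for RPRD1A siRNA, 0.22 for RPRD1B siRNA and -0.08 for RPRD2 siRNA.

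Of the 77 pathway genes, 49 were fitted in HEK293T cells, and none was called in any of the siRNA contrasts, single or pooled, by edgeR or DESeq2. At an unadjusted p under 0.05 the pooled contrasts held 2 of 49 for RPRD1B and 1 of 49 for RPRD2 siRNA, shares below the 6.42% and 3.35% of all genes. In the pooled RPRD1A contrast the outer values among genes averaging 10 CPM or more on the higher side were BMP4, a ligand, at -0.29 (SE 0.18), MSX2 at -0.28 (SE 0.14), SKIL at 0.18 (SE 0.15) and RGMA at 0.21 (SE 0.11). For RPRD1B siRNA GDF11, a ligand related to the BMPs, was lowest at -0.41 (SE 0.11, adjusted p = 0.68), followed by NBL1, a secreted BMP antagonist, at -0.23 (SE 0.16). The highest were RGMB, a co-receptor, at 0.37 (SE 0.18, adjusted p = 0.78) and USP15 at 0.35 (SE 0.16, adjusted p = 0.77). For RPRD2 siRNA the outer values were BMP4 at -0.23, TOB2, an antiproliferative SMAD regulator, at -0.23, SKIL at 0.18 and TCF12 at 0.36 (SE 0.15, adjusted p = 1).

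Ordered by group mean, ID1 ran from 49.4 CPM in RPRD1B_FL_TET and 44 CPM in RPRD1B_FL through the HEK293T groups (30.4 to 16.1 CPM) to 15.3 CPM in FLP_TET and 13.5 CPM in FLP. Neighbours in this order overlapped in 8 of 11 pairs, and the breaks fell below RPRD1B_FL, below RPRD1A_KD and between FLP_TET and FLP. The 16.1 CPM of RPRD1A_RPRD2_KD is the mean of 24.4 CPM and the 7.79 CPM of the library that stands apart; without that library the lowest HEK293T mean is 24.4 CPM. SMAD5 ran from 110 CPM in FLP to 53.1 CPM in RPRD1A_RPRD2_KD, with 9 of 11 neighbour pairs overlapping and breaks between RPRD2_KD and RPRD1A_RPRD1B_RPRD2_KD and above RPRD1A_RPRD2_KD. Among the other members 8 (ID3, SMAD6), 9 (ID2), 10 (ID4, SMAD9, BAMBI) or 11 (SMAD1, SMAD7) of 11 neighbour pairs overlapped.

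Across the 12 group means of log2(CPM + 1), the gene most like ID1 among 8891 genes with a mean of 10 CPM or more was ID3 (Pearson's r 0.94), followed by FYN, a SRC family kinase gene (0.90), and CCDC28A (0.90). FYN averaged 29.2 CPM in FLP and 42.2 CPM in RPRD1B_FL, and CCDC28A 110 and 150 CPM. SMAD6 stood at rank 66 (0.70), ID2 at rank 1067 (0.33) and ID4 at rank 6439 (-0.10). The genes most like SMAD5 were UBE2K, a ubiquitin-conjugating enzyme gene (0.94), the GTPase gene NRAS (0.93) and PALLD, which encodes an actin-associated protein (0.92). UBE2K averaged 227 CPM in control cells, 154 in RPRD1A_KD, 180 in RPRD1A_RPRD1A_KD, 126 in RPRD1A_RPRD2_KD and 171 in RPRD1A_RPRD1B_RPRD2_KD. NRAS averaged 172, 92.9, 135, 57 and 134 CPM in the same order. In RPRD1A_RPRD2_KD the library that stands apart had 104 CPM of UBE2K and 24.4 CPM of NRAS, and its partner 147 and 89.7 CPM. ID4 stood at rank 43 with SMAD5 (0.79). The 12 groups come from both lines and share the scaling of their libraries, so these are descriptions of likeness. The group means also hold the ID1 difference between lines and the lower SMAD5 with RPRD1A siRNA that chose the members.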

How the data were processed

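RNA from 24 samples in 12 groups of 2 was analysed. The deposited tables hold raw counts for each gene name, whole numbers that the authors made from QuantSeq 3′ REV libraries; FastQC, STAR, HTSeq, DESeq2 and GRCh38 are named, without versions or strand setting, per the submitters' processing notes. The annotation is not given in the sources used here. The 5 closing rows of each table (reads outside genes 15.3% to 36.7%, ambiguous 1.30% to 1.83%, not unique 9.56% to 14.6%) were left out. The fits used edgeR 4.0.16 under R 4.3.3, with filterByExpr (minimum count 10, minimum total 15), TMM, 1 coefficient per group, all samples of a line in 1 quasi-likelihood fit, tested on simulated data. SE was taken as the size of the log2 fold change divided by the root of the F statistic, and intervals use 1.96 SE. Levels are TMM-scaled CPM over all 24 samples. DESeq2 1.42.0 was an alternative. Members, pathway list and tests were chosen with earlier results of these data known. Pathway genes named are those called and, in each pooled contrast, up to 2 highest and 2 lowest with 10 CPM or more on the higher side, and for ID1 and SMAD5 the 3 genes most correlated over group means. Replicate chi-square per degree of freedom was 2.11 to 11.8, so replicates differed by more than sampling noise. Counts carry no molecular identifiers, so intervals on counts cover counting error only.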

Additional observations from a re-analysis of the deposited data

How the results depend on the processing

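ID1 and ID3 kept their direction in the line contrasts under each alternative run, which is a description because ID1 was chosen by these contrasts. No member was called for tetracycline under any run. Levels moved by at most 2.26% with RLE size factors and 8.26% with total counts. Same-numbered deviations correlated at a mean of 0.34 over 28 HEK293T pairs (-0.011 to 0.53, 26 over 0.1, 8730 genes). Over 6 Flp-In pairs they correlated at -0.35 to 0.45. The HEK293T replicate numbers thus share a difference whose source the labels do not state. The main fits had no replicate term, so their SE, p-values and calls leave this pairing out. With a replicate block SMAD5 was called in RPRD1A_RPRD2_KD (1 member, -0.97, also without a filter and with GC correction and block), and 1 pathway gene was called in RPRD1B_FL_TET against FLP_TET. Requiring a log2 fold change of 1 left 0 members for pooled RPRD1A siRNA, 2 for the line over both states (5 with GC correction, against 4), and 1 pathway gene in each line contrast.

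Called pathway genes in the line contrasts (2 each) became 1 without and 0 with tetracycline under both DESeq2 and a mean count of 50, 1 over both states at that mean count (3 with GC correction), and 1 with tetracycline under RLE factors. For tetracycline over both lines 1 was called without a filter and 1 with GC correction, with or without block; in FLP 1 when only its groups were fitted and 2 with GC correction, with or without block. Leaving out 1 library gave 0 to 2 members for pooled RPRD1A and RPRD1B siRNA, 0 to 3 for RPRD1A_RPRD2_KD, and 0 to 1 (second RPRD1A_RPRD2_KD library, with block) for RPRD1A_KD and RPRD1A_RPRD1A_KD; pathway counts of 0 to 3 for RPRD1A_RPRD2_KD, 0 to 1 for pooled RPRD1B, pooled RPRD2 and RPRD1A_RPRD1B_RPRD2_KD, 0 to 2 for both line contrasts and tetracycline in FLP, and 0 to 7 for tetracycline over both lines.

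Signs turned with GC correction, then with block added, for tetracycline over both lines (ID3 -0.10 and -0.10, SMAD5 0.00416 and 0.00489, SMAD6 -0.17 and -0.17, ID1 -0.003 with block) and for the interaction (ID1 0.09 and 0.10, ID3 0.018 and 0.014). With 1 library left out these ran from -0.061 to 0.12 for SMAD6 and -0.064 to 0.13 for ID3 over both lines, and -0.18 to 0.071 for ID1 and -0.30 to 0.10 for ID3 in the interaction. Counts over all genes moved more, over the alternatives that kept all libraries: 8 (1 to 31) for pooled RPRD1A, 3 (1 to 53) for pooled RPRD1B and 2 (1 to 7) for pooled RPRD2 siRNA, 1 to 2 (1 to 87) for single siRNA groups, 141 (80 to 370), 133 (77 to 261) and 488 (132 to 879) for the line without, with and over both tetracycline states, and 122 (0 to 1273), 0 (0 to 6) and 356 (0 to 908) for tetracycline in FLP, in RPRD1B_FL and over both. The causes were not tested. SMAD7, with 1 to 11 counts per HEK293T library, was not fitted there for lack of depth.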
